A study of Mus musculus with 6 samples.

Results

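Fibroblast growth factors (FGFs) and their receptors were followed through nuclei of mouse white fat. The 8 genes described here were 4 secreted ligands (Fgf1, Fgf2, Fgf7 and Fgf10), 3 tyrosine kinase receptors (Fgfr1, Fgfr2 and Fgfr3) and Klb, which encodes the co-receptor beta-klotho. They were taken by symbol from the 56980 genes listed in the count tables. Single-nucleus RNA sequencing had been done on 6 libraries from female C57BL/6J mice with no further genotype or treatment. There were 2 libraries of subcutaneous (inguinal) adipose tissue (SAT) from mice aged 2 months, 2 of SAT at 24 months, and 2 of visceral (gonadal) adipose tissue (VAT) at 24 months. The study's own text gives the older age as 26 months. Both depots of the older age came from 2 mice, and the labels do not say which SAT and VAT libraries share a mouse. The comparisons asked which classes of nucleus carried each gene, whether its level differed with age in SAT, and whether it differed between depots at 24 months.

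FGF ligands bind receptor tyrosine kinases together with heparan sulfate on the cell surface, and the active receptor signals through adaptor proteins to the RAS-MAPK pathway. Sprouty proteins, which that pathway induces, and the related Spred proteins restrain it in turn. Fgf7 and Fgf10 are mesenchymal ligands that act on the epithelial splice form of Fgfr2, and Fgf10 is needed for the formation of white fat in the mouse embryo. Fgf1 in adipocytes is a target of the nuclear receptor PPARgamma, and Fgf2 is a mitogen of precursor cells. The hormone FGF21 acts on fat through Fgfr1 and beta-klotho.

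Each library held between 8061862 and 16226690 unique molecular identifiers (UMIs) over all its barcodes, and 27074 of 50859 barcodes passed the filters, with 2490 to 5776 nuclei and a median of 1380 to 1878 UMIs per nucleus and library. At most 0.769% of barcodes were shared by any pair of libraries. Nuclei were clustered without the 8 genes and named from marker lists as adipocyte-like, fibro-adipogenic progenitor (FAP)-like, immune-like, endothelial-like, mesothelial-like and epithelial-like, and the suffix is left out from here on. The number of adipocyte nuclei ran from 151 (VAT replicate 2) to 2795 (VAT replicate 1) and the number of FAP nuclei from 51 (SAT 24 months replicate 1) to 580. Levels are in CPM, the UMIs of a gene in a class and library scaled to a class total of 1000000 UMIs. Several classes went against their labels in some libraries. FAP nuclei of VAT replicate 2 summed to 4299 CPM over the 9 FAP markers against 12518 to 24720 in the other libraries, and to 2737 CPM over the mesothelial markers against at most 239. SAT nuclei named mesothelial had no UMI of Msln, the defining mesothelial gene, and in the 3 libraries with at least 20 of them the FAP markers summed to 9711 to 14234 CPM and the mesothelial markers to 0 to 49.6 CPM, so they carried FAP and not mesothelial markers. VAT nuclei named epithelial had 0 and 140 CPM of Epcam against 998 to 1489 in SAT. Those of VAT replicate 1 (38 nuclei) summed to 97.5 CPM over the epithelial markers, against 3529 to 4039 CPM in SAT, and to 5264 CPM over smooth muscle or pericyte, 4419 CPM over FAP and 6158 CPM over adipocyte markers, so by markers they were not epithelial. Those of VAT replicate 2 summed to 723 CPM over the epithelial and 2582 CPM over the oviduct or ovary markers. SAT is the mammary fat pad, and its epithelial nuclei are mammary by their markers.

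Sequences upstream of 2 of the genes are shown, the ligand and the co-receptor with 84.8% and 79.2% of their UMIs in adipocytes. They are the 250 bases before the RefSeq start on build GRCm38.p6, from a table that had 6 of the 8 genes. Fgf10 is at chr13:118714449-118714698 and Klb at chr5:65348161-65348410, both on the plus strand, and capitals mark matches to any of 4 motifs searched on both strands.
Fgf10: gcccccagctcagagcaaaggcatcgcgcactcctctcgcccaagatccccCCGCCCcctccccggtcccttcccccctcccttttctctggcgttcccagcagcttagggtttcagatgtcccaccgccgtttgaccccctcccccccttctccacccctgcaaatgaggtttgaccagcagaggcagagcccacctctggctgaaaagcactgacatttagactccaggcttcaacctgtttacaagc
Klb: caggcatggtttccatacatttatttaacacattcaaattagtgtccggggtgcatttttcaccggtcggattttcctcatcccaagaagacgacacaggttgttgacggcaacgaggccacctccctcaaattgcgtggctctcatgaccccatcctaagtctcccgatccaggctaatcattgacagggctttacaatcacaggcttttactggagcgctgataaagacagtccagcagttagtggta
The motifs were the nuclear receptor half-site AGGTCA, the CCAAT box (CCAAT), the TATA box (TATAAA) and the GC box (GGGCGG), which had a match in 14.0%, 33.8%, 12.4% and 32.7% of 32851 promoter windows of this length. The Fgf10 window held 1 GC box on the minus strand, 199 to 194 bases before the start, and the Klb window held none of the 4.

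The ligands were carried by different classes. Adipocytes held 84.8% of all Fgf10 UMIs, 71.1% of those of Fgf2 and 33.8% of those of Fgf1, while making up 26.6% of nuclei. These shares pool libraries in which adipocytes were 2.98% to 63.0% of nuclei, and VAT replicate 1 gave 4393 of the adipocyte UMIs of Fgf10. In the 2-month libraries adipocytes held 189 and 95 Fgf10 UMIs and FAPs 140 and 65. FAPs, at 5.51% of nuclei, held 53.4% of the 339 UMIs of Fgf7. Mesothelial nuclei held 26.1% of Fgf1. Levels between classes are given as a description, without a test, since the classes were built from the same nuclei. Between neighbouring classes in the order of mean level, the range over libraries overlapped for every gene and every pair except Fgfr1 in adipocytes against endothelial nuclei.

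**Figure D1:**
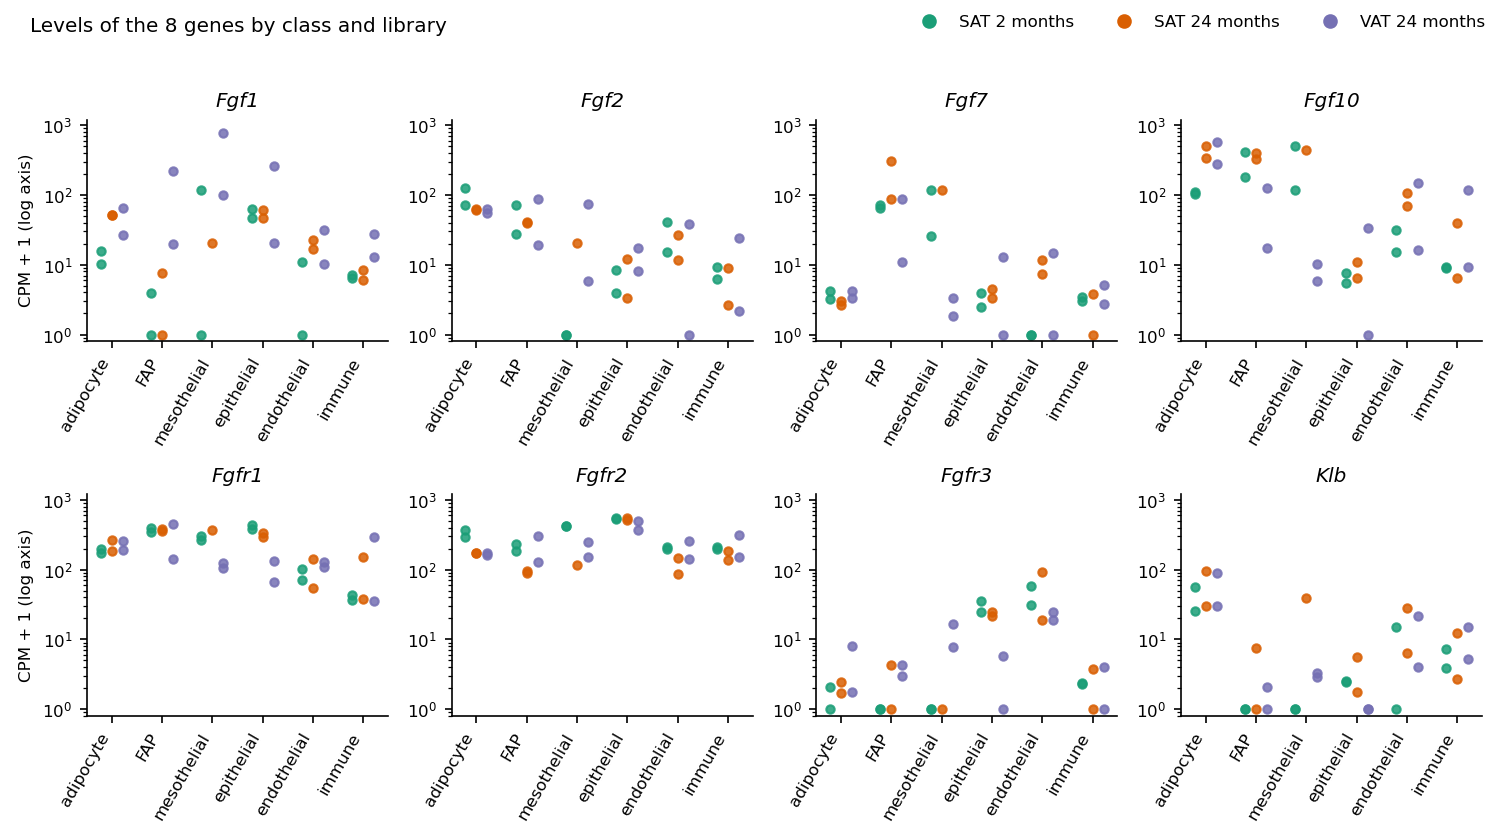
CPM + 1 on a log axis for each of the 8 genes by class, where a point is 1 library with at least 20 nuclei of the class and the colour gives the group. Adipocyte points for Fgf10 lie between 103 and 564 CPM and those for Fgfr3 at or under 7.09 CPM, and points for Fgf1 in mesothelial nuclei run from 0 to 759 CPM.

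Fgf10 (chromosome 13, 118806327 to 118928672 on GRCm39, plus strand) had a mean over 6 libraries of 314 ± 193 (SD) CPM in adipocytes and 242 ± 160 CPM in FAPs. Adipocytes were above FAPs in 4 of 6 libraries, and in both 2-month libraries FAPs, at 407 and 178 CPM, were above adipocytes, at 103 and 108 CPM. Immune nuclei had 30.7 ± 43.2 CPM and epithelial nuclei 9.82 ± 11.6 CPM. The share of adipocyte nuclei with at least 1 Fgf10 UMI was 15.1% (exact 95% interval 12.8 to 17.6) and 13.1% (10.3 to 16.3) at 2 months in SAT, 45.4% (41.7 to 49.3) and 37.7% (35.7 to 39.8) at 24 months in SAT, and 49.3% (47.4 to 51.1) and 32.5% (25.1 to 40.5) in VAT. Immune nuclei, a class that should lack this mesenchymal ligand, gave 1.31%, 1.06%, 0.808%, 4.26%, 9.43% and 1.19% in the same order, at a median of 1290.5 to 1529 UMIs per nucleus against 1575 to 2275 in adipocytes. When each nucleus was thinned to 1000 UMIs, the adipocyte shares became 8.77%, 8.51%, 31.0%, 22.9%, 31.1% and 17.9%, and the 4 older libraries stayed above both younger ones. The immune level of Fgf10 was highest, at 115 CPM, in VAT replicate 1, where the adipocyte gene Adipoq stood at 214 CPM in immune nuclei, and the part of free RNA in these levels was not tested. All such intervals cover counting error only.

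Within FAPs, Fgf10 was mostly a gene of the Col15a1 preadipocyte subtype. Those nuclei had 606 and 790 CPM at 2 months in SAT, 819 and 441 CPM at 24 months, and 286 and 14.0 CPM in VAT, the last from 2 UMIs in 96 nuclei. Dpp4 progenitors, the more primitive subtype, had 142 and 10.6 CPM of Fgf10 at 2 months, 0 (12 nuclei) and 45.0 CPM at 24 months, and 52.3 and 13.5 CPM in VAT. The Col15a1 subtype was higher than Dpp4 progenitors in all 6 libraries. In VAT replicate 2 the difference was under 1 CPM, and Col15a1 nuclei lay below the 16.2 CPM of all FAPs there. Fgf2 went the other way. Dpp4 progenitors had 42.5, 116, 185, 158, 172 and 0 CPM of Fgf2 in the library order SAT 2 months, SAT 24 months and VAT, against 6.44, 41.6, 0, 10.1, 10.4 and 35.0 CPM in the Col15a1 subtype, so that it was lower only in VAT replicate 2.

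Fgf7 (chromosome 2, 125876578 to 125934218, plus strand), the keratinocyte growth factor, had its highest mean in FAPs. They had 69.9 and 63.0 CPM at 2 months in SAT, 308 and 87.8 CPM at 24 months in SAT, and 86.3 and 10.1 CPM in VAT. The highest value rests on 23 UMIs in 51 nuclei and the lowest on 5 UMIs in the library whose FAPs carried mesothelial genes. Adipocytes had 1.61 to 3.26 CPM of Fgf7 in the 6 libraries, which is within the 0 to 4.16 CPM of immune nuclei. The SAT nuclei named mesothelial, which carried FAP and not mesothelial markers, had 24.8, 115 and 116 CPM of Fgf7 in the 3 libraries with at least 20 of them, and VAT mesothelial nuclei 2.29 and 0.818 CPM. Fgf10 had 496, 115 and 446 CPM in those SAT nuclei and 9.15 and 4.91 CPM in the VAT ones. These are levels of unlike nuclei and not a difference between depots.

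Fgf1 (chromosome 18, 38971717 to 39077186, minus strand), a ligand of every FGF receptor, had 759 CPM (332 UMIs, 236 nuclei) in the mesothelial nuclei of VAT replicate 1, where they were the highest class, and 97.7 CPM (358 UMIs, 1485 nuclei) in those of replicate 2, where they were not. Mesothelial clusters of 715, 337 and 175 nuclei were made up of VAT replicate 2 alone. Both VAT libraries carried Msln in these nuclei, at 446 and 117 CPM. Of the VAT mesothelial nuclei, 50.8% (exact 95% interval 44.3 to 57.4) and 8.48% (7.12 to 10.0) had an Fgf1 UMI. SAT nuclei of that name, which carried FAP and not mesothelial markers, gave 0, 115 and 19.4 CPM from at most 3 UMIs a library. In VAT replicate 2 the FAPs also had 220 CPM of Fgf1, against 0 to 18.6 CPM in the FAPs of the other 5 libraries. Mammary basal epithelial nuclei of SAT had 266, 244, 294 and 169 CPM, above the 25.7 to 71.4 CPM of hormone-sensing luminal and the 16.2 to 28.1 CPM of secretory luminal nuclei in the same libraries.

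Fgf2 (chromosome 3, 37402473 to 37464257, plus strand) was highest on average in adipocytes, at 72.2 ± 26.1 CPM, and next in FAPs, at 47.0 ± 26.8 CPM (SD, n = 6). Its order was adipocytes above FAPs in 5 of 6 libraries. The long noncoding gene Gm43439 overlaps Fgf2 on the same strand, so reads of both cannot be told apart there.

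The receptors were spread more widely. Fgfr1 (chromosome 8, 26003670 to 26066824, plus strand), through which most FGF ligands can signal, had 343 ± 105 CPM in FAPs and 212 ± 41.2 CPM in adipocytes (SD, n = 6). Epithelial nuclei of SAT had 408 ± 30.8 CPM at 2 months and 313 ± 35.4 CPM at 24 months (SD, n = 2), beside 372 ± 29.9 and 367 ± 12.3 CPM in FAPs of the same libraries, and the VAT nuclei of that name, which carried other markers, had 130 and 65.3 CPM. All 6 adipocyte values, 172 to 269 CPM, lay above all 6 endothelial values, 53.3 to 141 CPM. Among mammary nuclei, the basal type had 715, 648, 515 and 670 CPM of Fgfr1 in the 4 SAT libraries against 353, 291, 216 and 263 CPM in the hormone-sensing luminal type. Secretory luminal nuclei had 600, 474, 336 and 384 CPM. T cell nuclei had 9.98 to 16.7 CPM in SAT and 16.9 CPM in VAT replicate 2 and macrophage nuclei 183 to 329 CPM in SAT, so the immune mean hides unlike types.

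Fgfr3 (chromosome 5, 33879018 to 33894412, plus strand), which restrains bone growth, was scarce, with 411 UMIs over all nuclei kept. Endothelial nuclei had 18 to 90.6 CPM from 3 to 23 UMIs a library, and SAT epithelial nuclei 21 to 35.0 CPM from 27 to 48 UMIs. In VAT epithelial nuclei, 0 and 2 UMIs were found. Adipocytes had 0 to 8 UMIs a library, at most 7.09 CPM, and a UMI in 0% to 1.32% of nuclei, where immune nuclei had one in 0% to 0.365%.

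Klb (chromosome 5, 65505657 to 65541827, plus strand) was an adipocyte gene in all 6 libraries, with 79.2% of its 1161 UMIs there. Its adipocyte level was 24.4 and 54.5 CPM at 2 months in SAT, 28.9 and 93.3 CPM at 24 months in SAT, and 29.3 and 87.5 CPM in VAT. In each of the 3 groups 1 library was thus at least 2 times the other, and the groups overlapped. The next class, endothelial nuclei, had 0 to 27.3 CPM. FAPs, which carry the receptor Fgfr1 at 139 to 443 CPM, had 0 to 6.51 CPM of Klb.

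Fgfr2 needs a separate reading. Its ranges overlapped between unrelated classes, with 223 ± 85.6 CPM in adipocytes, 199 ± 62.7 CPM in immune and 172 ± 84.7 CPM in FAP nuclei (SD, n = 6), and 84.3 to 252 CPM in endothelial nuclei. B cell nuclei, for example, had 75.8 to 440 CPM. In the GENCODE M39 annotation on GRCm39 the gene spans chromosome 7, 129763471 to 132725079 on the minus strand, or 2961609 bases, because 1 of its 48 transcripts reaches across neighbouring genes. The second longest transcript covers 104802 bases. All 13 protein-coding genes that lie inside the long model on the same strand had 0 UMIs over all barcodes, whereas the 16 on the opposite strand had 3 to 8945 UMIs each, with a median of 2716.5. None of 22 other same-strand genes inside it had a UMI either. Counts under the symbol Fgfr2 therefore cannot be told apart from reads of those genes, and every Fgfr2 value here is that of the whole span. Epithelial nuclei had the highest mean, 499 ± 65.3 CPM, and hormone-sensing luminal nuclei of SAT had 581, 655, 903 and 925 CPM against 178 to 333 CPM in secretory luminal nuclei.

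**Figure D2:**
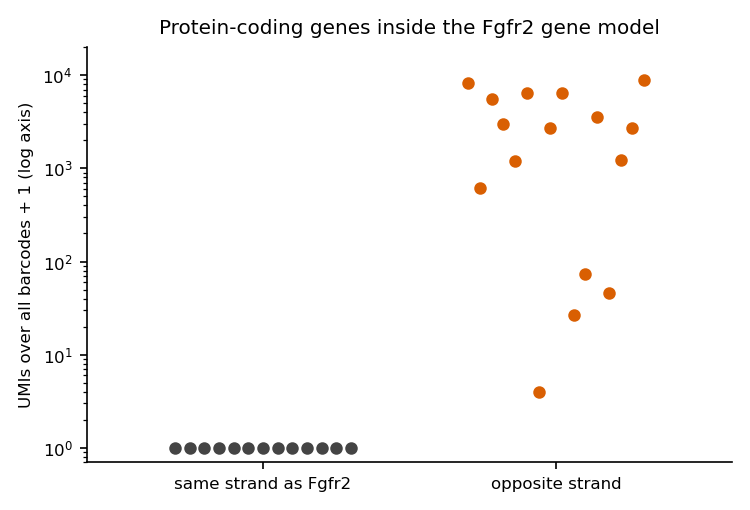
UMIs over all barcodes plus 1, on a log axis, for each protein-coding gene inside the annotated Fgfr2 span, by strand. All 13 genes on the strand of Fgfr2 lie at 0 UMIs and the 16 on the opposite strand lie between 3 and 8945.

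Age in SAT was tested on counts summed per library and class with edgeR's quasi-likelihood test, with p-values adjusted by Benjamini-Hochberg over all genes of the class. All calls among the 8 genes were in adipocytes, where Fgf10 and Fgf1 rose and Fgfr2 counts fell. These 3 of 6 members tested passed an adjusted p under 0.05, where 14.6% of all 12900 genes tested did (874 higher and 1007 lower at 24 months, or 663 and 1375 when scaled by library totals). Fgf7 and Fgfr3 were too rare in adipocytes to be tested.

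Adipocyte Fgf10 stood at 103 and 108 CPM at 2 months and at 502 and 334 CPM at 24 months. The 2 groups did not overlap, and the fold change was 4.45 (log2 fold change 2.15 ± 0.37 SE, edgeR adjusted p = 0.00284). It stayed past the threshold in the 16 other settings that could be fitted, with a log2 fold change of 1.88 to 2.5. Without Harmony, the step that aligns libraries before clustering, no fit by age could be made in adipocytes. Of the 1394 nuclei of the 2-month libraries named adipocyte with Harmony, 1375 then fell in 1 cluster that the naming rule left unnamed. The adipocyte list was the best match of that cluster of 1507 nuclei, with 7 markers over 2-fold, but none of them was among its 30 leading genes. The 4 adipocyte clusters were compared without a test. In each of the 4 adipocyte clusters, both SAT libraries at 24 months (251 to 576 CPM) lay above both at 2 months (66 to 157 CPM). For Fgf1 this held in 3 of the 4, and in cluster 4 SAT 24 months replicate 1, at 12.7 CPM, lay below SAT 2 months replicate 1, at 26.4 CPM. The antisense long noncoding gene Gm16263, which lies inside Fgf10 (chromosome 13, 118831828 to 118851932, minus strand), had 26.6 and 31.8 CPM in adipocytes at 2 months and 95.5 and 80.4 CPM at 24 months in SAT. It was among the 3 genes most like Fgf10 across classes and was named by that rule.

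Adipocyte Fgf1 stood at 14.7 and 9.08 CPM at 2 months and 50.8 and 49.9 CPM at 24 months, again without overlap, a fold change of 4.48 (log2 2.16 ± 0.42 SE, edgeR adjusted p = 0.00543). The 2-month values rest on 27 and 8 UMIs. Without SAT 2 months replicate 2 the adjusted p was 0.0709. A UMI of Fgf1 was found in 2.47% and 1.39% of adipocyte nuclei at 2 months and in 8.09% and 8.51% at 24 months, where immune nuclei gave 0.85%, 0.821%, 0.909% and 1.38%.

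Fgfr2 counts in adipocytes were 296 and 363 CPM at 2 months and 172 and 171 CPM at 24 months. They fell by 0.78 on the log2 scale (SE 0.24, edgeR adjusted p = 0.0488). DESeq2 did not call it (adjusted p = 0.0721). The call was lost in 5 of 10 other settings and when any 1 of the 6 libraries was left out, and the limit on the gene's span holds here too.

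The other 3 adipocyte members did not pass. Fgf2 had 124 and 71.5 CPM at 2 months and 60.5 and 60.8 CPM at 24 months (log2 fold change -0.56 ± 0.29 SE, adjusted p = 0.211). Fgfr1 had a log2 fold change of 0.44 ± 0.27 (adjusted p = 0.292). Klb had one of 0.91 ± 0.55 (adjusted p = 0.301), which turned to -0.13 without SAT 24 months replicate 2 and to 1.53 (adjusted p = 0.00703) without SAT 24 months replicate 1. For these 3 genes a missed threshold does not show that the ages were alike.

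**Figure D3:**
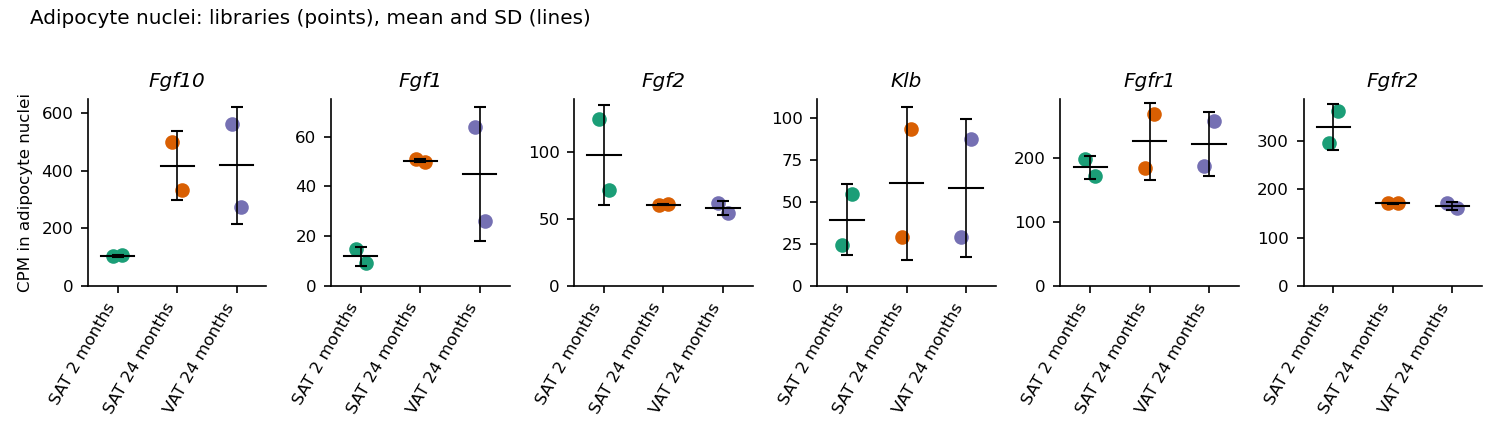
CPM in adipocyte nuclei for 6 of the genes, where a point is 1 library, the horizontal line is the mean of 2 libraries and the bar is 1 SD, on axes from 0. For Fgf10 and Fgf1 the SAT 24-month points, from 334 and 49.9 CPM, lie above the SAT 2-month points, which reach 108 and 14.7 CPM.

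Other features of the adipocyte nuclei moved with age. The 10 adipocyte markers summed to 19553 and 19806 CPM at 2 months and to 29002 and 28171 CPM at 24 months in SAT, and the leukocyte gene Ptprc stood at 132 and 202 CPM at 2 months against 38.5 and 23.3 CPM. The sum over the 10 immune markers was 641 and 1078 CPM against 254 and 247 CPM. The median mitochondrial share of UMIs in adipocyte nuclei was 0.702% and 0.461% at 2 months and 1.42% and 1.93% at 24 months in SAT, without overlap. Their part in the differences of Fgf10, Fgf1 and Fgfr2 was not tested. Dividing by library totals without TMM factors moved the median of all genes in this contrast by -0.17 on the log2 scale and changed no direction among these 3.

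FAPs gave no call with age. There, Fgf10 had 407 and 178 CPM at 2 months and 402 and 322 CPM at 24 months, overlapping, with a log2 fold change of 0.32 ± 0.75 SE. It turned to -0.16 without SAT 2 months replicate 2. Fgf7 had a log2 fold change of 1.44 ± 0.87, which was 0.45 without SAT 24 months replicate 1. None of 5 members passed, against 0% of 8137 genes tested, and 1 (Fgfr2, log2 fold change -1.20) had an unadjusted p under 0.05. The age effect in adipocytes minus that in FAPs was then tested for 7 members, with the library as a block. It was 1.69 ± 0.54 for Fgf10 on the log2 scale (unadjusted p = 0.00439, edgeR adjusted p = 0.161). None of the 7 passed, against 1.08% of 11941 genes, and Fgf10 alone had an unadjusted p under 0.05. Fgf10 passed when VAT replicate 1 or VAT replicate 2 was left out, at a log2 difference of 1.777 and 1.735. The SAT libraries compared were the same, and the cause was not tested. With all libraries the rise of Fgf10 was not shown to differ between adipocytes and FAPs.

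**Figure D4:**
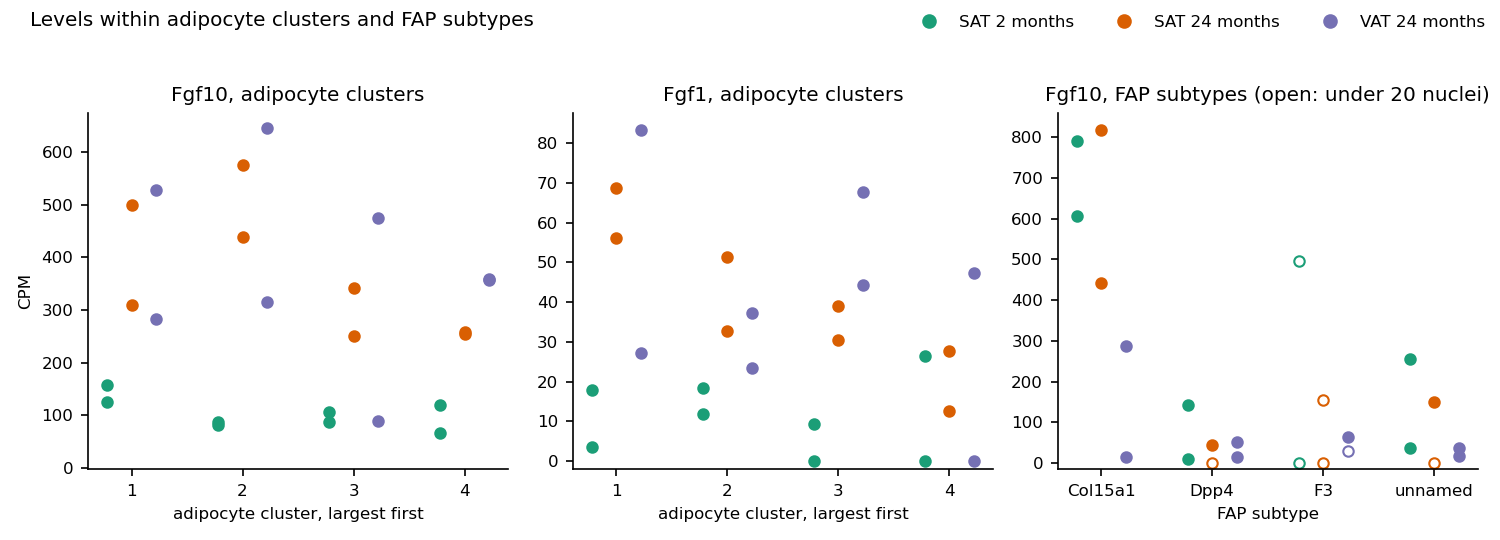
CPM of Fgf10 and Fgf1 in the 4 adipocyte clusters, numbered from the largest, and of Fgf10 in the FAP subtypes, where a point is 1 library, colours give groups and open points have under 20 nuclei. For Fgf10 the SAT 24-month points lie at or above 251 CPM in each adipocyte cluster and the SAT 2-month points at or under 157 CPM, and in FAPs the Col15a1 preadipocyte points reach 819 CPM.

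No member passed with age in the remaining classes tested. Mesothelial nuclei were not tested by age or by depot, since SAT 24 months replicate 1 held 9 of them, under the minimum of 20. In endothelial nuclei 0 of 4 passed, against 0.0282% of 7085 genes, and Fgf10 had 30.2 and 14.2 CPM at 2 months and 69.3 and 105 CPM at 24 months (log2 fold change 2.24 ± 1.13, adjusted p = 0.488). The adipocyte gene Adipoq stood at 322 and 269 CPM and at 176 and 1679 CPM in those nuclei. In immune nuclei 0 of 6 passed, against 0% of 14037 genes, and in epithelial nuclei 0 of 6, against 1.18% of 12963 genes. None of these members had an unadjusted p under 0.05. Over all nuclei together 0 of 8 passed, against 0% of 21729 genes, with log2 fold changes from 0.10 to 2.65, and only Fgf1 had an unadjusted p under 0.05. DESeq2 called no member in these classes, in FAPs or in the difference between adipocytes and FAPs either.

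The depots were compared at 24 months. In adipocytes none of the 6 members passed and none had an unadjusted p under 0.05, against 0.124% of 12900 genes called, with log2 fold changes (VAT over SAT) from -0.35 to 0.07. Fgf10 in VAT adipocytes, at 564 and 274 CPM, enclosed the SAT values of 502 and 334 CPM. Its log2 fold change was 0.07 ± 0.35 SE. Fgf1 in VAT adipocytes, at 64.1 and 26.0 CPM, likewise enclosed 50.8 and 49.9 CPM. Fgfr2 counts, at 172 and 161 CPM, were beside those of SAT.

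FAPs of VAT had less Fgf10, at 125 and 16.2 CPM against 402 and 322 CPM in SAT at 24 months, without overlap. The Col15a1 subtype had more Fgf10 than Dpp4 progenitors. It made up 25 of 51 and 129 of 197 FAP nuclei in SAT at 24 months and 196 of 580 and 96 of 305 in VAT. Within that subtype the libraries of VAT (286 and 14.0 CPM) also lay below those of SAT (819 and 441 CPM), as given above, and the part of the mix in the result was not tested. The log2 fold change was -2.25 ± 0.79 SE (unadjusted p = 0.0177, edgeR adjusted p = 0.796), which did not pass. Fgf7 had a log2 fold change of -1.77 ± 0.85. None of 5 members passed, against 0.0123% of 8137 genes, and 2 (Fgf10 and Fgfr2, the latter 1.26 higher on the log2 scale) had an unadjusted p under 0.05. Without VAT replicate 2, the library whose FAPs carried mesothelial genes, the Fgf10 value was -1.43 (adjusted p = 0.638), and without VAT replicate 1 it was -4.43 (adjusted p = 0.000228) and that of Fgf7 -4.02 (adjusted p = 0.00244). These rest on 1 VAT library that is assumed to vary like the other groups. Without SAT 24 months replicate 1 the Fgf7 value was -0.76.

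Among nuclei named epithelial, Fgfr1 was lower in VAT, at 130 and 65.3 CPM against 288 and 338 CPM in SAT (log2 fold change -1.95 ± 0.38 SE, edgeR adjusted p = 0.00865). It was the single call among 6 members, against 13% of 12963 genes. The VAT nuclei of this class had 0 and 140 CPM of Epcam and 97.5 and 55.6 CPM of Msln, against 1060 and 1489 CPM of Epcam and 4.66 and 2.00 CPM of Msln in SAT at 24 months, and the 38 nuclei of VAT replicate 1 were not epithelial by their marker lists, as given above. The type of cell and the depot cannot be told apart. The call was lost without SAT 24 months replicate 1, SAT 24 months replicate 2 or VAT replicate 2 (adjusted p = 0.0512 to 0.0828). Fgfr3 had a log2 fold change of -2.39 ± 0.85 (adjusted p = 0.0938) there. In endothelial nuclei 0 of 4 passed, against 0% of 7085 genes, and in immune nuclei 0 of 6, against 0% of 14037 genes. Over all nuclei 0 of 8 passed, against 0.0138% of 21729 genes. Fgf1 had an unadjusted p under 0.05 in immune nuclei and in all nuclei together, and DESeq2 called no member in these classes, in adipocytes or in FAPs.

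The other genes of the pathway were taken from 6 lists of 64 genes in all. In adipocytes 44 could be tested with age, and 7 rose and 7 fell. The 14.6% of all genes called is the share to read these against. DESeq2 called 8 of the 44, and 10.2% of all genes. Of 9 feedback inhibitors and induced transcription factors tested, 4 rose and none fell, and the median log2 fold change over the 9 was 1.36 against 0.00 over all genes. Spry4, a Sprouty inhibitor, had 3 UMIs and 0 UMIs at 2 months and 13.1 and 31.8 CPM at 24 months, and VAT adipocytes had 19.8 and 16.6 CPM. The pooled ratio in SAT was 25.3 (exact 95% counting interval 8.54 to 124). That interval covers counting error only, and the edgeR test between libraries gave an adjusted p of 0.00239. With so few UMIs at 2 months the size is poorly fixed, and the log2 fold change of 4.53 was 9.22 without SAT 2 months replicate 1 and 3.77 without SAT 24 months replicate 2. Spred3, of the related Spred family, had 7.05 and 10.2 CPM at 2 months and 41.9 and 20.1 CPM at 24 months (log2 fold change 2.00 ± 0.48, adjusted p = 0.0170), and was not called without either 2-month library. Spry2 and Spred2, named after their values were seen because they complete the 4, rose by 1.45 and 1.36 on the log2 scale. The calls of Spry2 and Spred2 were each lost in 4 of 10 other settings and in 3 of 6 fits that left out a library. Without either 2-month library the calls of Spry2 (adjusted p = 0.130 and 0.231), Spred2 (0.238 and 0.163) and Spred3 were all lost, and of the 4 only that of Spry4 was kept. Markers of other cells in these nuclei also differed with age, as given above, and their part here was not tested.

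The intracellular FGF homologous factors, which are not secreted and bind sodium channels in place of FGF receptors, did not move together. Fgf13 rose from 31.5 and 52.2 CPM to 115 and 124 CPM (log2 fold change 1.72 ± 0.28, edgeR adjusted p = 0.00210). Fgf14 fell from 676 and 702 CPM to 35.0 and 51.3 CPM, by 3.82 on the log2 scale (SE 0.40, adjusted p = 0.000152), and VAT adipocytes had 174 and 68.6 CPM. Fgf14 also had an unadjusted edgeR p under 0.05 with age in immune and in endothelial nuclei. DESeq2 called it with age in endothelial nuclei and by depot in adipocytes. Fgf12 fell from 19.0 and 18.2 CPM to 2.06 and 4.84 CPM, by 2.12 on the log2 scale (SE 0.59, adjusted p = 0.0320). The call of Fgf13 was lost without SAT 2 months replicate 1 (adjusted p = 0.0506) and that of Fgf12 without either 2-month library, without SAT 24 months replicate 1 (0.0823), under DESeq2 (0.0591), with a looser nucleus filter (log2 fold change -1.26, adjusted p = 0.180) and without the 5% of nuclei with most UMIs (0.0510). Fgf11 did not pass.

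Cell-surface proteoglycans and heparan sulfate enzymes, which set how FGFs are held at the membrane, were mixed. Of 10 other receptors and proteoglycans, 1 rose (Gpc4) and 3 fell (Gpc3, Gpc5 and Gpc6), named after their values were seen. The call of Gpc3 was lost in 5 of 10 other settings (DESeq2 adjusted p = 0.108) and in 4 of 6 fits without a library, that of Gpc6 in 5 of 10 (DESeq2 adjusted p = 0.0781) and 3 of 6, that of Gpc4 in 1 of 10 and 3 of 6, and that of Gpc5 in 1 of 6. Of 11 heparan sulfate enzymes, 1 rose (Sulf1, a sulfatase that trims heparan sulfate, from 78.7 and 56.7 CPM to 236 and 165 CPM) and 2 fell. Sulf1 was not called without SAT 2 months replicate 2 (adjusted p = 0.0661). The larger fall was that of Hs6st2, a sulfotransferase, from 15.2 and 9.08 CPM to 2.06 and 2.33 CPM, by 2.31 on the log2 scale (SE 0.66, adjusted p = 0.0360). That call was lost under DESeq2 (adjusted p = 0.0828), with a looser nucleus filter (0.156), without the 5% of nuclei with most UMIs (0.0506) and without any 1 of the 4 SAT libraries (0.0679 to 0.347). None of 9 signal adaptors passed, with a median log2 fold change of 0.06, and the only other secreted ligand tested, of 14, did not pass.

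**Figure D5:**
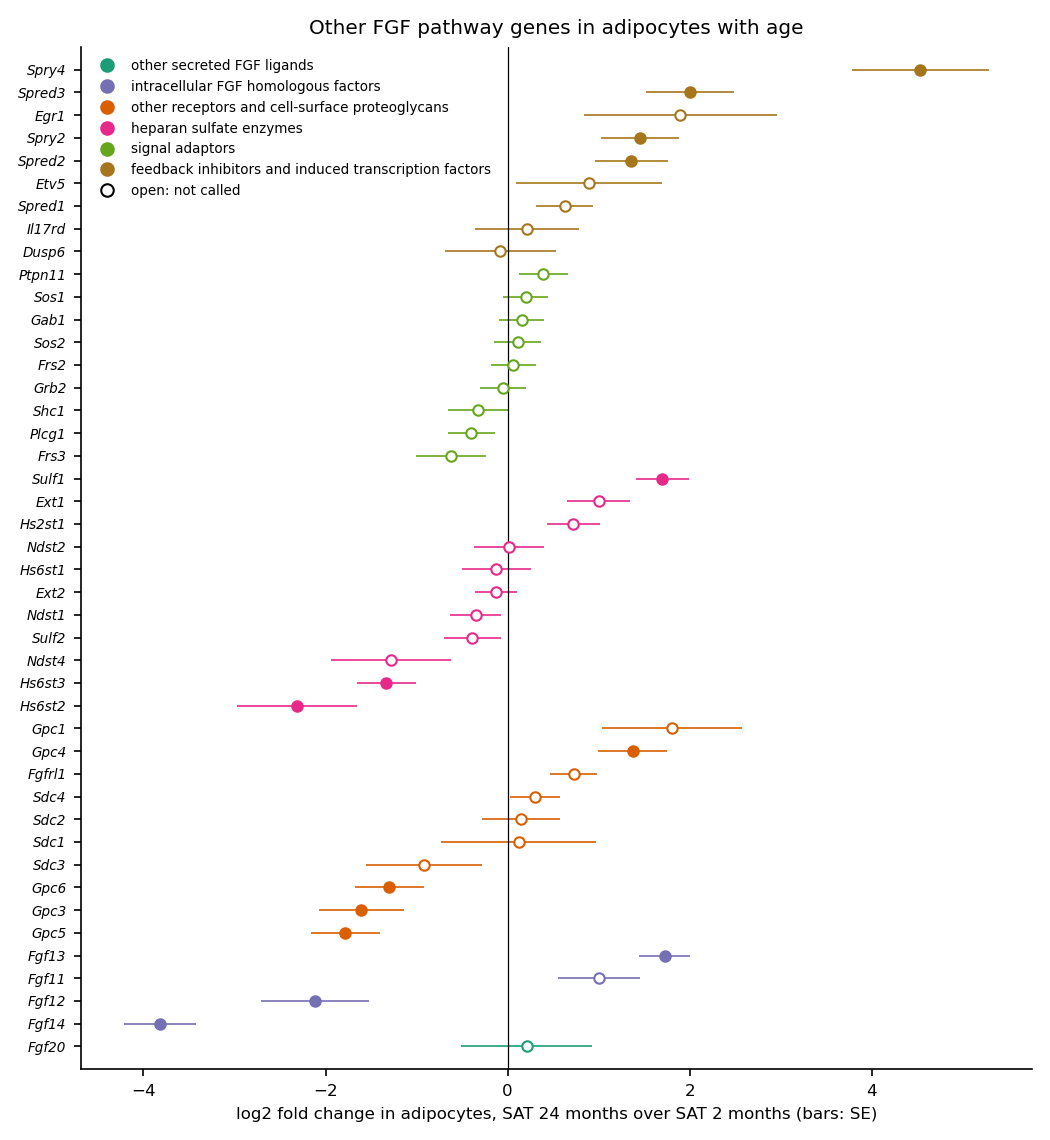
Log2 fold change in adipocytes, SAT 24 months over SAT 2 months, for the 44 other FGF pathway genes tested, coloured by list, with bars of 1 SE and filled points for adjusted p under 0.05. The 4 filled feedback inhibitors lie to the right of 0, led by Spry4 at 4.53, and Fgf14 lies furthest left at -3.82.

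The age effect in adipocytes minus that in FAPs passed for 1 of 47 pathway genes, Fgf13 (log2 difference 2.61 ± 0.61, edgeR adjusted p = 0.0289), against the 1.08% of all genes. The Fgf13 call was lost under DESeq2 (adjusted p = 0.110) and without SAT 2 months replicate 1 or either SAT 24-month library. In the single-class comparisons other than adipocytes by age, pathway genes were called among epithelial nuclei by depot alone, where 5 rose and 4 fell of 48 tested, against the 13% of all genes, with the same VAT nuclei that were not epithelial by their markers in replicate 1. By the naming rule these were Gpc3 (log2 fold change 4.59 ± 0.59), Ndst4 (4.45 ± 0.89) and Hs6st2 (4.10 ± 0.77) as higher in VAT, with adjusted p of 0.00106 to 0.00923 (edgeR), and Gpc6 (-4.31 ± 0.71), Etv4 and Sulf2 (-1.49 ± 0.36) as lower. Hs6st2 and Ndst4 had no UMI in VAT replicate 1. Etv4, a transcription factor induced by FGF signals, had 1 UMI over both VAT libraries and 83 in SAT at 24 months, a pooled ratio of 12 (exact 95% counting interval 2.1 to 480) in favour of SAT. With a looser nucleus filter the value of Gpc3 was 2.36 (adjusted p = 0.0733) and that of Ndst4 1.97 (0.209), and with doublets removed that of Ndst4 was 2.58 (0.214). The calls of Ndst4 without either SAT 24-month library and of Hs6st2 without SAT 24 months replicate 2 were lost too. The call of Etv4 was lost in 7 of 10 other settings (DESeq2 adjusted p = 0.0820) and in 5 of 6 fits without a library, and that of Sulf2 in 2 of 10 and 5 of 6. Without VAT replicate 2 the depot value of Hs6st2 was -5.76 (adjusted p = 0.612) and that of Ndst4 -4.77 (0.733), which is set by the count of 0 in the 38 nuclei of the other VAT library and is no measured fall. In the other classes and contrasts tested, and over all nuclei, edgeR called no pathway gene, with 2 to 8 at an unadjusted p under 0.05 in each. DESeq2 called 0 to 2 in each.

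Across 43 sums, each of 1 class in 1 library, the genes whose log2(CPM + 10) profile was most like that of a member were found among 14958 genes. The sums share libraries, depth and classes, so the Pearson r values are a description. Fgf10 was nearest to Thbs2 (r = 0.88), Adamts12 (0.88) and its antisense neighbour Gm16263 (0.87). Fgf7 was nearest to Tnfaip6 (0.86), Ms4a4d (0.86) and Gm46329 (0.85). Klb was nearest to 9630013D21Rik (0.85), Ccdc152 (0.84) and Flacc1 (0.82). Fgfr3 was nearest to Mall (0.82), Tspan9 (0.80) and 2200002D01Rik (0.80). Fgf2 was nearest to Pde1a (0.79), Adgrg2 (0.76) and Pcsk5 (0.71). Fgf1 was nearest to Dtna (0.72), Gm50304 (0.66) and the mesothelial gene Msln (0.64), and Fgfr1 to Scn7a (0.73), Lamc1 (0.73) and Rbfox2 (0.73).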

How the data were processed

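Nuclei were sequenced with the Singleron GEXSCOPE chemistry, and per the labels and the study's methods reads were aligned to GRCm39 and counted with Celescope. Versions and the annotation release are not given in the sources used here. The deposited files hold raw UMI counts per gene and barcode, without normalization or cell annotation. The study's thresholds were applied to the barcodes (more than 500 genes detected, more than 1000 UMIs, mitochondrial share below 15%). Clustering used own code, scikit-learn 1.9.0 and leidenalg 0.10.2. Settings were 1000 variable genes without the 8 members and mitochondrial genes, 30 components, 20 neighbours, Leiden resolution 2.0 and sub-clusters at 1.0. Harmony over libraries was an own implementation and not the published package. Nuclei were named from marker lists, by a rule revised after the clusters were seen. Of all kept nuclei, 9.66% stayed unnamed, and names may differ from the study's. The members, gene lists and tests were chosen with earlier results of these data known. Scrublet, run through scanpy 1.11.5, marked 36 nuclei, so doublets were not effectively removed.

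Counts were summed per library and class (at least 20 nuclei) and tested in 1 fit of the 3 groups with edgeR 4.0.16 (quasi-likelihood, TMM, filterByExpr, Benjamini-Hochberg per class and contrast), with DESeq2 1.42.0 as an alternative. Each SE is the log2 fold change over the square root of F. With 2 libraries per group, p-values measure the spread between these libraries. CPM is relative to all UMIs of the class in a library and is compared within a gene only. Intervals are exact (Clopper-Pearson, 95%). Shares were also given after thinning nuclei to 1000 UMIs. Named pathway genes were the 3 largest called changes in each direction, and others are said to be chosen after seeing values. Scripts were tested on simulated data. The genes most like Fgfr2 are not reported here.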

Additional observations from a re-analysis of the deposited data

Results flagged for a closer look

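The effect of age on Fgf13, an intracellular FGF homologous factor, differed between adipocytes and FAPs by a test of the difference itself, by 2.61 on the log2 scale (SE 0.61, edgeR adjusted p = 0.0289). In adipocytes Fgf13 stood at 31.5 and 52.2 CPM at 2 months and at 115 and 124 CPM at 24 months in SAT. In FAPs it stood at 90.2 and 71.2 CPM and at 13.4 and 55.3 CPM, the value of 13.4 CPM resting on 1 UMI. DESeq2 gave an adjusted p of 0.110. Without SAT 2 months replicate 1, SAT 24 months replicate 1 or SAT 24 months replicate 2 the difference was 2.16, 2.22 and 4.33 and the adjusted p 0.235, 0.336 and 0.260.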

How the results depend on the processing

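Counts of calls are summed over the classes and all nuclei together. They are to be read against the share of all genes called in the same setting. In adipocytes by age that share was 14.6% in the main fit and 6.75% with no filter beyond 1 count. It was 11.1% with a looser nucleus filter and 11.4% without the 5% of nuclei with most UMIs. In epithelial nuclei by depot it was 13% in the main fit, 9.63% with no filter and 7.6% in a fit of the 4 libraries alone. Member calls with age (3, all in adipocytes) became 6 with no filter beyond 1 count (3 in adipocytes, with Klb in place of Fgfr2, 2 over all nuclei and 1 in immune nuclei, where 6.75%, 2.29% and 1.95% of all genes were called) and 1 to 3 when each library was left out in turn (1 without SAT 2 months replicate 2), and member calls by depot (1, in epithelial nuclei) became 3 with no filter (2 of them Fgf10 and Fgf1 in FAPs, where 0.736% of all genes were called, and 1 in epithelial nuclei, where 9.63% were), 0 in a fit of the 4 libraries alone and 0 to 6 by leaving out libraries (6 without VAT replicate 1, of which 4 in FAPs, 1 over all nuclei and 1 in epithelial nuclei, where 5.75%, 4.02% and 21.2% of all genes were called, and 0 without either SAT 24-month library). Pathway calls with age (14) became 24 with no filter, 8 with a looser nucleus filter, 9 without the 5% of nuclei with most UMIs and 4 to 19 by leaving out libraries (4 without either 2-month library, where 4.75% and 2.99% of all adipocyte genes were called). Pathway calls by depot (9) became 26 with no filter, 4 in the fit of 4 libraries and 4 to 22 by leaving out libraries (22 without VAT replicate 1). Member calls for the difference between adipocytes and FAPs (0) ranged from 0 to 1. The class with the highest mean level was kept for 8 members, or 7 to 8 when libraries were left out. The causes were not tested. Without Harmony the adipocyte fit by age and the epithelial fit by depot could not be made, so the adipocyte calls by age were not checked against that choice: 1375 of the 1394 adipocyte nuclei of the 2-month libraries fell in 1 cluster left unnamed.

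The labels do not say that a number marks a shared mouse, and with 2 libraries a group the check does not show that libraries are unpaired. The correlations of same-numbered deviations were -0.0916 (age) and 0.112 (depot) in adipocytes and ran from -0.479 to 0.112 over classes and contrasts. With the replicate number as a block, member calls were 3 by age and 1 by depot, and pathway calls 15 and 8. In those fits 17.3% of all adipocyte genes by age and 8.7% of all epithelial genes by depot were called. With the pairing crossed, chosen after seeing the data, member calls were 2 and 1 and pathway calls 9 and 8. The shares of all genes were then 12.1% and 11.3%. The adipocyte depot value of Fgf1 turned to -0.11 with the block.

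Log2 fold changes also changed sign as follows. By leaving out libraries, Klb in adipocytes by age ranged from -0.13 to 1.53, Fgf10 in FAPs by age from -0.16 to 1.00, Fgf10 in adipocytes by depot from -0.65 to 0.50, Fgf1 there from -0.99 to 0.42, and Hs6st2 and Ndst4 in epithelial nuclei by depot from -5.76 to 4.55 and from -4.77 to 4.88, where the negative ends rest on 0 UMIs in the 38 nuclei of VAT replicate 1 and are no measured fall. Fgf10 in adipocytes by depot was -0.026 without the 5% of nuclei with most UMIs, an alternative chosen after seeing the data, and Fgf1 there -0.014 by DESeq2. Of 528 mean levels recomputed, 521 stayed within 1 SD. Scaling by library totals moved the median of all genes by -0.19 over all nuclei, -0.13 in immune and -0.33 in endothelial nuclei by age, by 0.17 in endothelial nuclei by depot, and by -0.11 for the difference between adipocytes and FAPs. Fgf7 and Fgfr3 were too rare in adipocytes to be tested, and all FAP values of SAT 24 months replicate 1 rest on 51 nuclei.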
